A study of Mus musculus with 9 samples.

Results

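The genes described here encode proteins of cartilage matrix that are not collagens, together with 3 cartilage-enriched genes that act around it. They are Acan, Hapln1, Matn1, Matn3, Matn4, Comp, Chad, Papss2, Wwp2 and Cytl1. The 10 were taken by symbol from a table with 23809 distinct gene names, where each occurred in 1 row. RNA was sequenced from green cells sorted out of dissociated mouse embryo limbs at stage E12.5, counted in days of gestation. All sorted samples carried the Rosa mTmG reporter and Cre recombinase at 1 allele of Shox2, so green cells are those that have made Cre from the Shox2 locus. Controls were Shox2(Cre/+) and kept a normal second allele, and mutants were Shox2(Cre/-). What the Cre insertion does to its own allele is not stated in the labels, and both groups carry it. The table used here has 1 control and 1 mutant column for each of litters 1, 2 and 3. Litter 1 has 2 mutant samples in the labels, and neither their relation to its 1 column nor the number of embryos per sample is stated in the labels or headers. The 2 whole-limb samples were not analysed here.

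Cartilage forms in the limb when mesenchymal cells condense and become chondrocytes under the transcription factor Sox9 and its partners Sox5 and Sox6. Chondrocytes surround themselves with a network of type II collagen fibrils and with aggrecan, a proteoglycan whose sulfated chains bind water and which is held on hyaluronan by link protein. Smaller proteins such as matrilins, Comp and chondroadherin connect these networks to each other and to cells. The comparison asks how transcripts of these proteins differ in Shox2-lineage cells when Shox2 is disrupted.

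Values were taken as FPKM, fragments per kilobase of transcript after scaling between libraries, since the header does not name the unit. The headers state a geometric scaling, made for each litter separately. On that reading values are per length and can be compared between genes. Shox2 itself was at 217, 222 and 210 FPKM in the controls of litters 1, 2 and 3, and at 16.7, 18.3 and 96.9 FPKM in the mutants. The litter 3 mutant column thus kept the most Shox2 transcript. The limb mesenchyme genes Prrx1 and Twist1 lay between 106 and 246 FPKM in the 6 columns, and Col2a1 between 418 and 703 FPKM. Sums over fixed lists of muscle markers were 32.4 to 88.1 FPKM in controls and 53.3 to 90.6 FPKM in mutants, and sums of 6 red cell markers 328 to 595 and 229 to 715 FPKM. Endothelial sums were 16.7 to 23.0 and 12.2 to 14.98 FPKM, surface ectoderm sums 18.2 to 40.3 and 15.7 to 20.9 FPKM, nerve and glia sums 50.1 to 109 and 66.0 to 101 FPKM, and leukocyte sums 12.03 to 16.0 and 10.8 to 21.6 FPKM. No marker found in the table was at 0 in all columns. In litter 2 the columns also differed in sex-linked transcripts. The Y-linked Eif2s3y was at 23.9 FPKM in that control and listed at 0 in that mutant, and Xist was at 34.6 and 178 FPKM. In litter 1, control and mutant had Xist at 12.1 and 36.8 FPKM and Eif2s3y at 21.6 and 22.4 FPKM. In litter 3 they had Xist at 73.0 and 68.4 FPKM and Eif2s3y at 16.2 and 14.4 FPKM. Genotype and sex composition cannot be told apart in litter 2, and a part of sex composition in litters 1 and 3 was not tested. In bulk RNA, fewer cartilage cells and less RNA per cartilage cell cannot be told apart either.

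All 10 genes were detected in each of the 6 columns, from 1.03 FPKM for Chad to 137 FPKM for Matn4, and all 10 entered the test. In order of their mean over the columns, Matn4 (105 FPKM) and Wwp2 (88.5 FPKM) came first, followed by Matn1 (42.7 FPKM) and Papss2 (40.1 FPKM). Acan (21.1 FPKM), Hapln1 (17.9 FPKM) and Cytl1 (13.0 FPKM) were intermediate, and Matn3 (6.31 FPKM), Chad (3.68 FPKM) and Comp (2.84 FPKM) were low. Only the steps from Wwp2 to Matn1 and from Papss2 to Acan were free of overlap between the ranges of the neighbouring genes. Matn1 was above Papss2 in 3 of 6 columns.

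**Figure D1:**
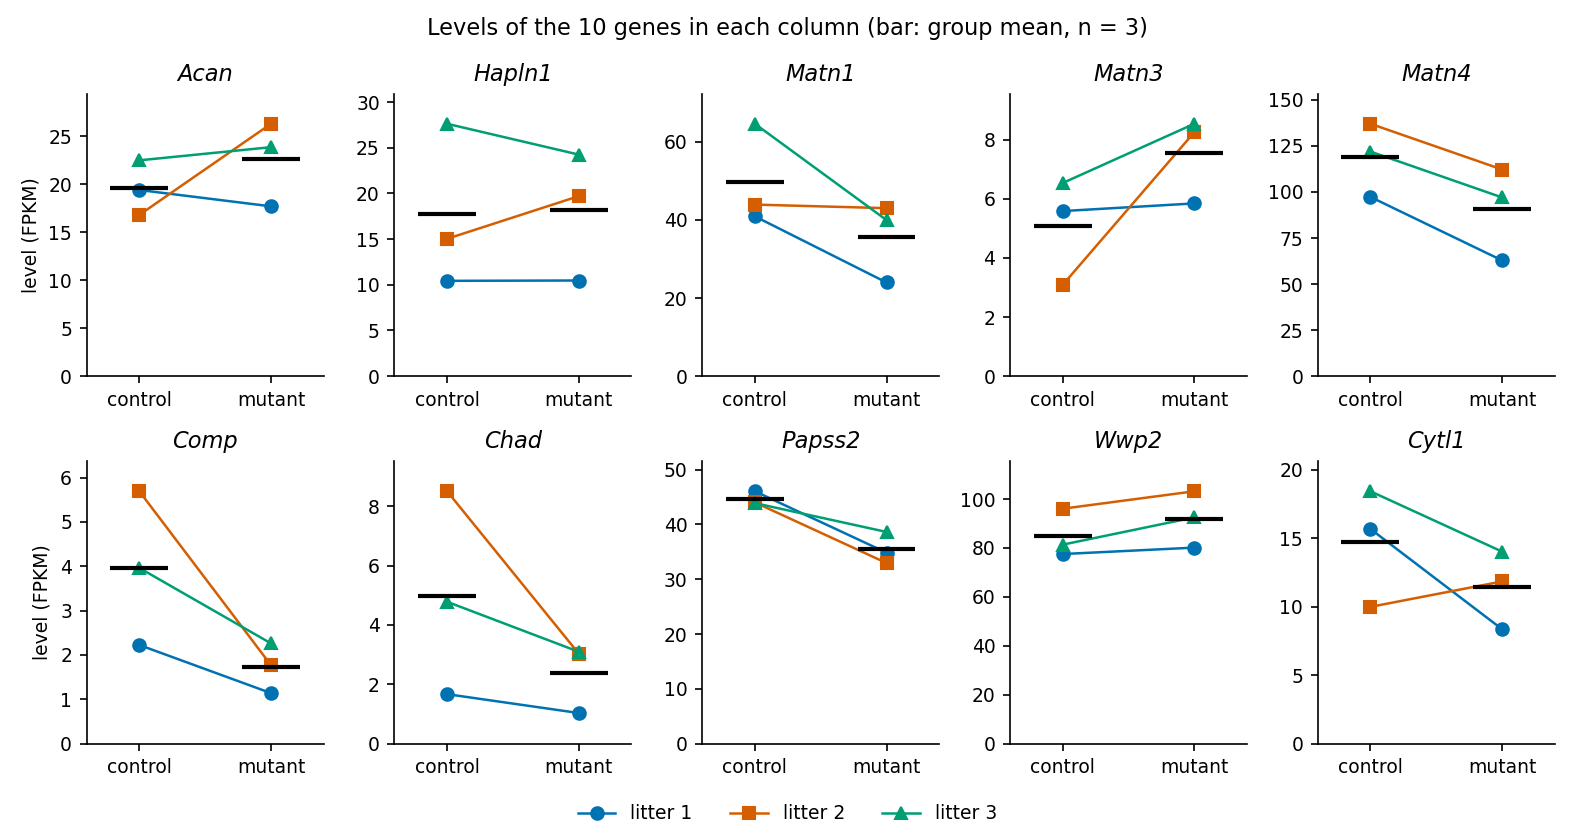
Each panel plots 1 gene in FPKM on a linear axis from 0, with a point for each column, a line joining the control and mutant columns of a litter, and a black bar for the mean of 3 columns. Lines for Matn1, Matn4, Comp, Chad and Papss2 slope down in all 3 litters, and lines for Matn3 and Wwp2 slope up.

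Between genotypes the genes did not move together. Matn1, Matn4, Comp, Chad and Papss2 were lower in the mutant than in the control of the same litter in 3 of 3 litters, and Matn3 and Wwp2 were higher in 3 of 3. Acan, Hapln1 and Cytl1 differed in direction between litters. Among all 12314 rows tested, 22.3% were lower and 15.7% higher in 3 of 3 litters, so 5 of 10 lower is above the share of all rows and 2 of 10 higher is near it. The median log2 difference, mutant minus control, was -0.33 over the 10 genes against -0.04 over all rows. By litter it was -0.39, 0.04 and -0.25 over the 10 genes, against -0.07, -0.03 and 0.00 over all rows.

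None of the 10 passed the threshold in limma after adjustment over all rows, where 0 rows, or 0%, were called. Shox2 itself did not pass, with a log2 difference of -2.75 (SE 0.64, limma adjusted p = 0.803). It passed without mutant replicate 3, the mutant column with most Shox2 (log2 -3.56, limma adjusted p = 0.0120). Without any other single column it did not pass. Differences below are of log2(FPKM + 1), which understates the change of low genes such as Comp and Chad. Each of the 10 had a limma adjusted p of 1.00. SEs below are from this fit without a litter block, so they include differences between litters. For Chad the SE was 0.51 in this fit and 0.19 with litter as a block. At an unadjusted p under 0.05, Comp and Papss2 were lower and none was higher, against 1.36% of rows lower and 2.21% higher. Adding litter as a block left limma with 0% of rows called. At an unadjusted p under 0.05, that fit had Comp, Chad, Matn4, Matn1 and Papss2 lower and Matn3 higher, 5 and 1 of 10 genes, against 6.29% of rows lower and 5.34% higher. Blocked adjusted p-values over all rows ran from 0.187 for Comp to 0.853 for Hapln1. In the blocked fit without the litter 2 pair, Matn1, Cytl1, Comp and Matn4 passed, all lower (limma adjusted p = 0.00018, 0.0017, 0.0067 and 0.0454), where 4.34% of all rows passed. That fit has 1 residual degree of freedom per gene and leans on the spread pooled over rows. Without the litter 1 or the litter 3 pair instead, 0 of the 10 passed, where 0 and 36 of all rows passed. Shox2 passed in the blocked fits without litter 2 or litter 3 (limma adjusted p = 5.0e-11 and 8.7e-06). It did not pass without litter 1 (limma adjusted p = 0.713). In the omitted litter 2, Matn1 hardly differed (log2 -0.03) and Cytl1 was higher (0.23), while Comp differed most (-1.27). With column weights and the block, Matn1 and Comp passed (limma adjusted p = 0.0326 and 0.0459), where 1.81% of all rows passed. With 3 columns per group, 0.1 is the smallest two-sided p that exact permutation can reach here. That permutation exchanges columns freely and does not keep the litter pairs, although columns of a litter vary together. Exchanges within pairs only would leave fewer arrangements and a larger smallest p. The permutation p-values below are therefore descriptions.

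**Figure D2:**
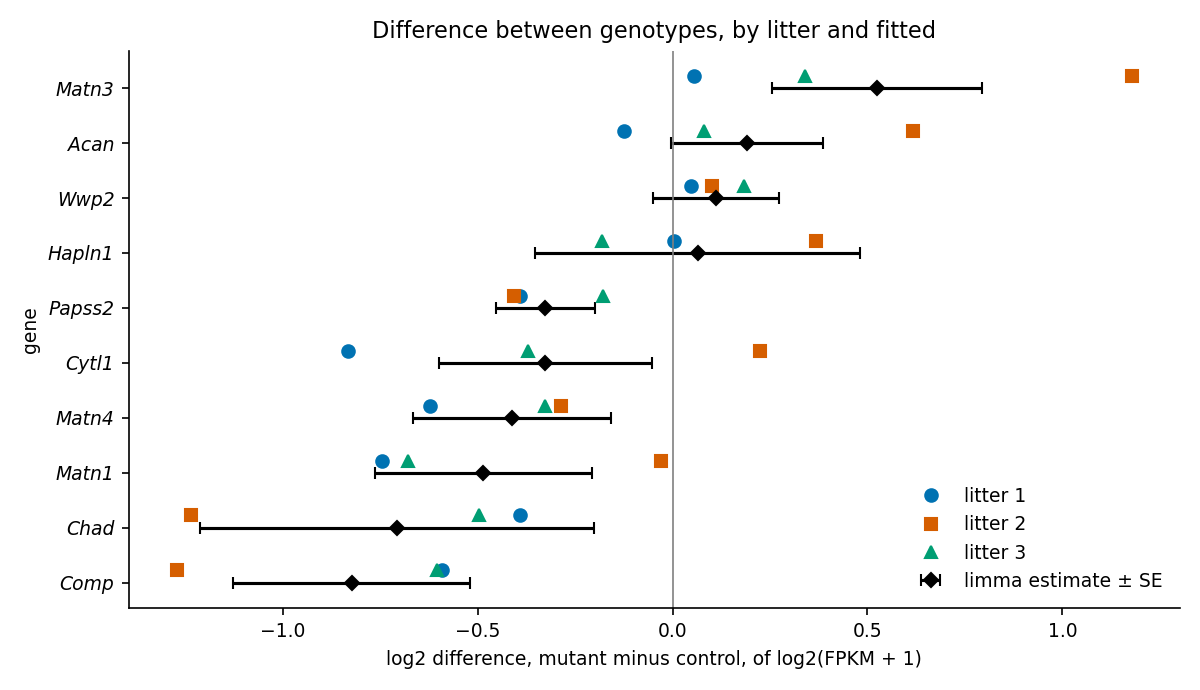
The horizontal axis is the difference of log2(FPKM + 1), mutant minus control, with 1 row per gene. Coloured points are the 3 litters, and black diamonds with bars are the limma estimate and its SE in the fit without a litter block. Comp has the lowest estimate at -0.82 and Matn3 the highest at 0.52.

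Acan encodes aggrecan, the main proteoglycan of cartilage. It was at 19.4, 16.8 and 22.5 FPKM in the controls of litters 1, 2 and 3 and at 17.7, 26.3 and 23.9 FPKM in the mutants. The groups overlapped, and only litter 2 showed a clear difference, with its control the lowest column and its mutant the highest. The means were 19.6 ± 2.85 and 22.6 ± 4.44 FPKM (SD, n = 3), a log2 difference of 0.19 (SE 0.19).

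Hapln1 encodes the link protein that ties aggrecan to hyaluronan. It was at 10.44, 15.04 and 27.6 FPKM in the controls and at 10.47, 19.7 and 24.3 FPKM in the mutants. Its level followed the litter, with both litter 1 columns lowest and both litter 3 columns highest. Of the variance of its log2 values, 94.7% lay between litters and 0.385% between genotypes. Normalisation is stated for each litter separately, so shares between litters, here and below, may include differences of scaling. The log2 difference was 0.06 (SE 0.42), with litters at 0.0047, 0.37 and -0.18, and the estimate turned negative without control replicate 1, mutant replicate 2 or mutant replicate 3 (-0.24, -0.03 and -0.17). Hapln1 is the only one of the 10 in a deposited list of 1352 symbols whose title calls them directly repressed by Shox2. The labels do not say how the list was drawn up.

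Promoter windows were read from a RefSeq table of the GRCm38.p6 build, another build than that of the expression table, and cover 250 bases before to 50 bases after each start. They were found for 9 genes in 11 windows, with none for Comp. Each was searched on both strands for TAATTA, a core bound by many homeodomain proteins, ACAATG, a core bound by SOX proteins, and TATAAA, the TATA box. TAATTA was in 5.29% of all 32851 windows and, among these genes, in Hapln1 alone. The Hapln1 window is shown because Shox2 is a homeodomain factor and Hapln1 is in the list above. It lies at chr13:89540386-89540645 on the plus strand, up to 10 bases past the start, and the capitals mark TAATTA, which begins 5 bases before the start.
Hapln1: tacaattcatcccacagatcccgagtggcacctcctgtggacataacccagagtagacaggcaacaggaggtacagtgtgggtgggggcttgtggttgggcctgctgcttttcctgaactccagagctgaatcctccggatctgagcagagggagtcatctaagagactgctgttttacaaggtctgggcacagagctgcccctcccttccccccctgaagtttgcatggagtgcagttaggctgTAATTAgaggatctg
A match is a description of these letters, and binding was not measured.

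The matrilins are adaptor proteins that form filaments between collagen fibrils and aggrecan. Matn1, abundant in cartilage of the embryo, was at 40.9, 43.9 and 64.6 FPKM in the controls and at 24.0, 43.0 and 39.9 FPKM in the mutants. The mutant was clearly below its control in litters 1 and 3, at 58.6% and 61.8%, while in litter 2 it was at 97.9%, so the groups overlapped. The means were 49.8 ± 12.9 and 35.6 ± 10.2 FPKM, a log2 difference of -0.49 (SE 0.28).

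Matn4, a matrilin also made outside cartilage, was at 97.3, 137 and 122 FPKM in the controls and at 62.8, 112 and 97.0 FPKM in the mutants. The mutant was at 64.6%, 81.9% and 79.6% of its control, and litter 1 was the lowest litter in both groups. The means were 119 ± 20.1 and 90.7 ± 25.3 FPKM, a log2 difference of -0.41 (SE 0.25).

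Matn3, a matrilin of growth plate cartilage, lay in the other direction. It was at 5.59, 3.09 and 6.54 FPKM in the controls and at 5.85, 8.25 and 8.54 FPKM in the mutants. Its difference was largest in litter 2, at 2.67-fold, where the control was the lowest column, and was 1.05-fold and 1.31-fold in litters 1 and 3. The means were 5.07 ± 1.78 and 7.55 ± 1.48 FPKM, a log2 difference of 0.52 (SE 0.27), which was 0.20 in the blocked fit without the litter 2 pair. Over the 6 columns Matn1 and Matn4 had a Pearson correlation of 0.85 (Spearman 0.94), while Matn3 had 0.03 with Matn1 and -0.29 with Matn4 (Spearman -0.20 and -0.37). These columns share litter and genotype, so the values are descriptions.

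The windows of Matn1 and Matn3 are shown side by side because these family members differed in direction. Matn1 lies at chr4:130944135-130944394 and Matn3 at chr12:8947679-8947938, both on the plus strand and shown up to 10 bases past the start. Neither holds any of the 3 motifs, so no letters are in capitals.
Matn1: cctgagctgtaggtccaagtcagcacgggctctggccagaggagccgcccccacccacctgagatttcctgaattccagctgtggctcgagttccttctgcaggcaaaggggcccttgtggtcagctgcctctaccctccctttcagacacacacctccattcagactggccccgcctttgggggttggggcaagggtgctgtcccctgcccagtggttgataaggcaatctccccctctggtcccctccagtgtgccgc
Matn3: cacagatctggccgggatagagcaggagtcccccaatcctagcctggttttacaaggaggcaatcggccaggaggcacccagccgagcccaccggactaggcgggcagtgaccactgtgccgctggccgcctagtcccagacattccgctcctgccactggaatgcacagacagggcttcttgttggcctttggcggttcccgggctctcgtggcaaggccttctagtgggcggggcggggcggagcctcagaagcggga
ACAATG or its reverse was in 12.6% of all windows and in 0 of the 11 windows of these genes, which says only that these letters are not in the windows searched.

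Comp and Chad had the largest differences of the set. Comp encodes cartilage oligomeric matrix protein, a thrombospondin family member of cartilage and tendon that binds collagens. It was at 2.22, 5.69 and 3.96 FPKM in the controls and at 1.14, 1.77 and 2.26 FPKM in the mutants. The mutant was at 51.2%, 31.1% and 57.1% of its control, and the groups overlapped only because the litter 1 control was below the litter 3 mutant. The means were 3.96 ± 1.73 and 1.72 ± 0.562 FPKM, a log2 difference of -0.82 (SE 0.30, exact two-sided permutation p = 0.2), or -1.11 with 0.1 FPKM added in place of 1.

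Chad encodes chondroadherin, a leucine-rich repeat protein through which chondrocytes attach to matrix. It was at 1.67, 8.50 and 4.78 FPKM in the controls and at 1.03, 3.03 and 3.10 FPKM in the mutants. Controls differed among themselves by 5.10-fold, more than the mutants differed from them, and the mutant was at 61.9%, 35.7% and 64.8% of its control. The means were 4.98 ± 3.42 and 2.39 ± 1.17 FPKM, a log2 difference of -0.71 (SE 0.51). That estimate was -0.28 without control replicate 2, the highest column, and -1.20 without control replicate 1, the lowest.

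Comp and Chad varied together, with a Pearson correlation of 0.93 and a Spearman correlation of 0.94 over the 6 columns, the highest Pearson value of the 45 pairs among the 10 genes with a pseudocount of 1 FPKM. With 0.1 FPKM, Matn4 and Chad were level with them, both at 0.92. Deviations from the group means correlated at 0.98. Both differed most in litter 2. Marker lists of other cell types also differed in litter 2. The median log2 difference of red cell markers was -1.01 there, with 0.81 in litter 1 and -0.23 in litter 3. Surface ectoderm markers had -0.86 in litter 2, with 0.15 and -0.04 in litters 1 and 3, and endothelial markers -0.70, with -0.07 and -0.24. Muscle markers had -0.28 in litter 2, nerve and glia markers 0.0080 and leukocyte markers 0.42. Markers of bone and hypertrophic cartilage had medians of -0.33, -0.37 and -0.37, with 7 of 10 markers reaching 1 FPKM in a column and sums of 69.5 to 98.4 FPKM in controls and 52.3 to 73.9 FPKM in mutants. The 7 tendon markers had medians of -0.49, -0.22 and -0.30, with sums of 237 to 250 and 211 to 262 FPKM. The 8 joint interzone markers went the other way in litters 2 and 3, with medians of -0.15, 0.21 and 0.20. Their sums were 306 to 421 FPKM in controls and 341 to 472 FPKM in mutants. The part of these cell types in the differences of Comp and Chad was not tested.

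TATAAA or its reverse was in 13.6% of all windows and in those of Chad and Wwp2. The Chad window is shown because its match begins 28 bases before the start. It lies at chr11:94564797-94565056 on the plus strand, with the match in capitals.
Chad: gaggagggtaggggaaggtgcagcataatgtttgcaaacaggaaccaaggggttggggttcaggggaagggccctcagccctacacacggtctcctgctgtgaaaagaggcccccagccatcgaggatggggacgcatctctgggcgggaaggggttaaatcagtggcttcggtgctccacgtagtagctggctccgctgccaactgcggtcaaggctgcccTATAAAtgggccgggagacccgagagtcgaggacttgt

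Papss2 makes the activated sulfate donor that is used to sulfate the chondroitin chains of aggrecan. It was at 46.0, 44.0 and 43.9 FPKM in the controls and at 34.8, 32.95 and 38.6 FPKM in the mutants. It was the only one of the 10 genes without overlap between groups, against 5.03% of rows lower and 4.22% higher without overlap. The controls differed by only 1.05-fold, and the mutant was at 75.7%, 74.9% and 88.0% of its control, nearest to it in litter 3. The means were 44.6 ± 1.21 and 35.5 ± 2.89 FPKM, a log2 difference of -0.33 (SE 0.13, exact two-sided permutation p = 0.1). Genotype held 84.9% of the variance of its log2 values and litter 6.54%. Its family member Papss1, which makes the same donor and was named after its values were seen, was at 81.0, 88.4 and 87.4 FPKM in the controls and at 86.2, 105 and 97.4 FPKM in the mutants, higher in 3 of 3 litters.

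Wwp2 encodes a ubiquitin ligase and is the host gene of the cartilage microRNA Mir140. It was at 77.5, 96.1 and 81.4 FPKM in the controls and at 80.2, 103 and 92.5 FPKM in the mutants. The mutant was above its control in each litter, by 1.03-fold, 1.07-fold and 1.14-fold, which is less than the 1.24-fold range among the controls. The means were 85.0 ± 9.78 and 91.9 ± 11.5 FPKM, a log2 difference of 0.11 (SE 0.16), and litter held 82.9% of the variance. In the GENCODE M21 annotation of GRCm38, Mir140 spans 70 bases inside Wwp2 on the same strand and overlaps an exon of an annotated Wwp2 transcript. The Mir140 row was listed at 0 in both columns of litters 1 and 2 and at 161 and 320 FPKM in litter 3. Over 70 bases, few reads can give a large FPKM, so these values are not read as a difference between litters or genotypes. Mature microRNA was not measured separately.

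Cytl1 encodes a small secreted protein of cartilage. It was at 15.7, 9.98 and 18.4 FPKM in the controls and at 8.35, 11.8 and 14.01 FPKM in the mutants. The mutant was at 53.3% and 76.1% of its control in litters 1 and 3 and 1.19-fold above it in litter 2, so the groups overlapped. The means were 14.7 ± 4.30 and 11.4 ± 2.855 FPKM, a log2 difference of -0.33 (SE 0.27), or -0.60 in the blocked fit without the litter 2 pair.

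Levels were next set against Col2a1, the main cartilage collagen, since sorted cells can hold different shares of cartilage cells. Col2a1 was at 464, 448 and 493 FPKM in the controls and at 418, 703 and 580 FPKM in the mutants, with a log2 difference of 0.24 (SE 0.23, limma adjusted p = 1.00). Acan followed it closely. The log2 ratio of Acan to Col2a1 differed between mutant and control by 0.02, -0.0035 and -0.15 in litters 1, 2 and 3, a mean of -0.05 ± 0.09 (SD, n = 3). The litter 2 difference seen in Acan alone was thus also present in Col2a1.

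Matn1 was lower relative to Col2a1 by similar amounts in each litter, at -0.62, -0.68 and -0.93, a mean of -0.74 ± 0.16. Its ratios did not overlap between groups (exact two-sided permutation p = 0.1). In litter 2 its own level hardly differed and Col2a1 was higher in the mutant (log2 0.65). Matn4 had a mean of -0.66 ± 0.24, Cytl1 -0.60 ± 0.18, Papss2 -0.58 ± 0.43, Chad -1.18 ± 0.84 and Comp -1.40 ± 0.82, and all were lower in 3 of 3 litters. Matn3 was higher in 3 of 3 litters, with a mean of 0.38 ± 0.34. In all, 6 of 10 genes were lower relative to Col2a1 in 3 of 3 litters, against 36.6% of 12216 rows above 0 in every column. The groups did not overlap for 4 genes, Matn1, Matn4, Comp and Papss2, against 14.9% of rows. Hapln1 and Wwp2 had means of -0.18 ± 0.30 and -0.13 ± 0.38, with litters in both directions.

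**Figure D3:**
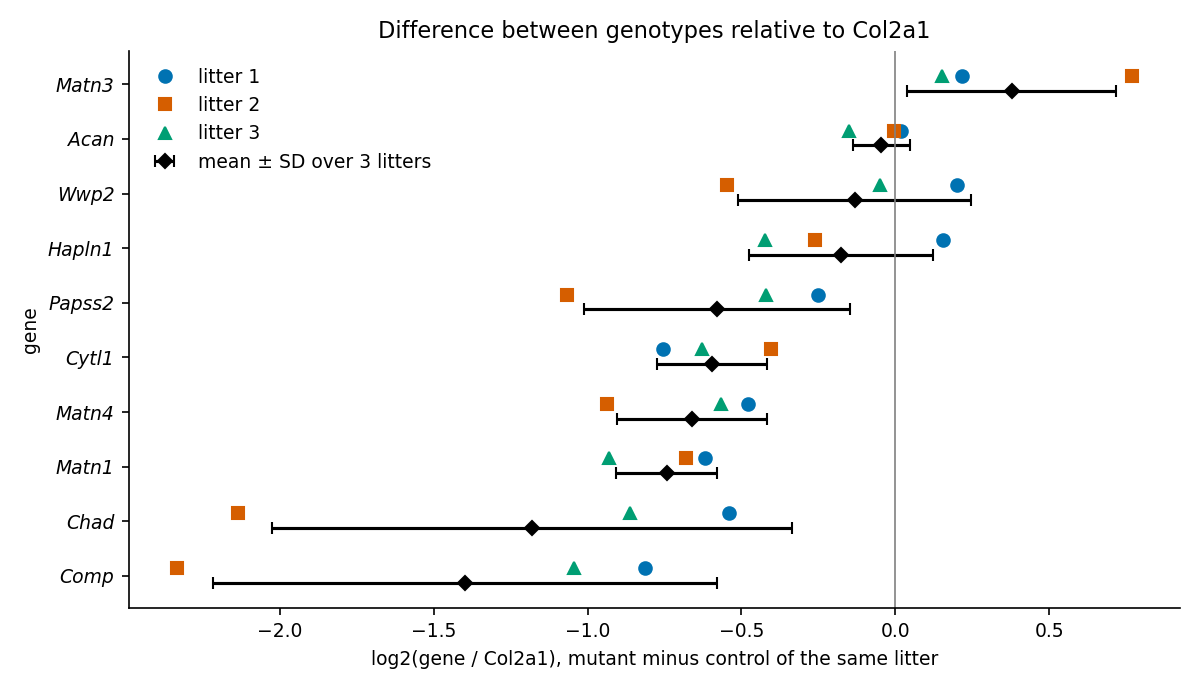
The horizontal axis is log2(gene / Col2a1) in the mutant minus that in the control of the same litter, with 1 row per gene. Coloured points are litters, and black diamonds with bars are the mean and SD over 3 litters. Acan lies nearest to 0 at -0.05, and the points of Matn1, Matn4, Cytl1, Papss2, Chad and Comp are all below 0.

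Relative to Sox9, which was at 32.2, 112 and 59.8 FPKM in the controls and at 35.3, 95.8 and 75.2 FPKM in the mutants, 4 of 10 genes were lower in 3 of 3 litters, against 26.2% of rows. They were Matn4, Comp, Chad and Papss2. Without the litter 2 pair the count was 9, but 72.7% of all rows were then lower too, with Sox9 itself higher in the mutants of litters 1 and 3 (log2 0.13 and 0.33), so that count is not particular to these genes. The groups did not overlap for Comp and Chad, against 1.14% of rows. The log2 ratio of Comp to Sox9 differed by -1.10, -1.46 and -1.14 in litters 1, 2 and 3, and that of Chad by -0.82, -1.27 and -0.96. The spread between litters was thus smaller than against Col2a1, with means of -1.23 ± 0.20 and -1.02 ± 0.23. Matn1 and Cytl1, lower in each litter relative to Col2a1, turned in litter 2 relative to Sox9. Matn1 differed by -0.90, 0.19 and -1.02 in litters 1, 2 and 3, and Cytl1 by -1.04, 0.47 and -0.73.

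Across the 10 genes the median share of variance between litters was 45.4% and between genotypes 29.0%, where the medians over all rows were 65.6% and 9.66%. The mean of the standardised log2 values of the 10 genes was lowest in the litter 1 mutant (-1.13) and highest in the litter 3 control (0.67). Matn1 followed this mean most closely (Pearson correlation 0.94 over 6 columns) and Matn3 least (0.14), with Papss2 at 0.35 and Wwp2 at 0.41. The 5 other genes most like this mean were Rnf24, Igsf9, Sfpq, Sirpa and Gtse1, with Pearson correlations of 0.997 to 0.992 over the 6 columns. They were picked as the highest among the tested rows over only 6 columns, a choice that favours high values. Sfpq, an abundant RNA-binding protein, was at 206, 255 and 305 FPKM in the controls and at 151, 251 and 247 FPKM in the mutants, again lowest in the litter 1 mutant.

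Other genes of the cartilage pathway were described from 7 lists, with 0 genes called by limma in any of them with or without the litter block. The cartilage collagens had a median log2 difference of 0.16 over 7 tested genes, with 0 higher and 0 lower in 3 of 3 litters. Like Col2a1, Col9a1 and Col11a1 had their largest differences in litter 2 (0.67 and 0.74, where litter 1 had -0.19 and -0.04 and litter 3 had 0.16 and 0.15). The 12 tested regulators of chondrocyte genes had a median of -0.04, with 4 higher and 1 lower in 3 of 3 litters. Sox5 was at 5.19, 6.33 and 6.86 FPKM in the controls and at 10.1, 12.7 and 10.2 FPKM in the mutants. Sox6 was at 8.10, 6.98 and 8.09 FPKM in the controls and at 11.3, 9.60 and 9.73 FPKM in the mutants. Neither overlapped between groups, and both were higher in the mutants, by 0.75 (SE 0.16) and 0.36 (SE 0.14) in log2 (limma adjusted p = 0.732 and 1.00). Runx2, a regulator of chondrocyte maturation and bone formation, was the lower gene, with a log2 difference of -0.92 (SE 0.46). With litter as a block its limma adjusted p was 0.0663, and that of Sox5 was 0.0998.

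Other cartilage-enriched matrix and secreted genes had a median of -0.02 over 17 tested genes, with 5 higher and 4 lower in 3 of 3 litters. Its genes of smallest p differed in direction. Frzb, a secreted Wnt antagonist of cartilage, was at 18.2, 9.89 and 21.5 FPKM in the controls and at 27.6, 30.1 and 43.8 FPKM in the mutants. The symbol 3110079O15Rik, an older name of Snorc, a proteoglycan of chondrocytes, was at 2.23, 7.70 and 7.53 FPKM in the controls and at 0.664, 2.02 and 3.003 FPKM in the mutants. Its log2 difference was -1.19 (SE 0.49). Its pattern, low in litter 1 and lower in each mutant, resembled those of Comp and Chad. The growth factor receptor gene Fgfr3 was at 14.99 ± 0.369 and 19.2 ± 2.68 FPKM.

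Genes listed for chondroitin sulfate chain synthesis and sulfation, the pathway that Papss2 supplies, had a median of 0.01 over 33 tested genes. In 3 of 3 litters, 9 were higher and 6 lower. The list also held Sulf1 and Sulf2, which act on heparan sulfate chains, and Sulf2 was 1 of the 6 lower. Chpf, a chondroitin polymerising factor, had means of 26.6 ± 2.74 FPKM in controls and 19.6 ± 3.12 FPKM in mutants, without overlap. Csgalnact1, which starts the chains, was at 4.49 ± 0.521 and 6.06 ± 0.755 FPKM, also without overlap, and the nucleotide sugar transporter gene Slc35d2 at 1.24 ± 0.0981 and 1.74 ± 0.168 FPKM. These were named as the 3 genes of smallest p in the list, a choice that favours genes without overlap. Over all rows, 5.03% were lower and 4.22% higher without overlap. The 3 did not share a direction.

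Family relatives of the 10 genes had a median of 0.11 over 14 tested genes, with 7 higher and 2 lower in 3 of 3 litters. Thbs1, a thrombospondin like Comp, was at 99.4, 63.5 and 89.9 FPKM in the controls and at 139, 143 and 140 FPKM in the mutants. The log2 difference was 0.76 (SE 0.19, limma adjusted p = 0.859). Vcan, the versican proteoglycan of early mesenchyme and a relative of aggrecan, was at 119 ± 17.8 and 163 ± 19.4 FPKM. Both were higher in the mutants without overlap. Other thrombospondins lay in the direction of Comp. Thbs2 was at 16.6 ± 0.930 and 13.7 ± 1.35 FPKM, lower without overlap. Thbs1, Vcan and Thbs2 were named as the 3 genes of smallest p in their list, which favours genes without overlap. Thbs4, a thrombospondin of tendon and cartilage named after its values were seen, was at 3.94, 18.7 and 20.5 FPKM in the controls and at 2.51, 10.7 and 10.2 FPKM in the mutants. It was lower in 3 of 3 litters with overlapping groups, by a log2 difference of -0.73 (SE 0.70). With litter as a block its limma adjusted p was 0.105. Thbs3 differed by -0.10 with litters in both directions. The thrombospondins thus did not share a direction.

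The hyaluronan and aggrecan turnover list had a median of -0.09 over 14 tested genes, with 2 higher and 1 lower in 3 of 3 litters, and its genes of smallest p were Hyal2, Adamts15 and Adamts20 with log2 differences of -0.22, -0.27 and 0.24. The integrin and matrix receptor list had a median of 0.02 over 13 tested genes, with 3 in each direction. Itgav, an integrin subunit, was at 16.7 ± 2.22 and 21.1 ± 1.89 FPKM. Itga10, a collagen-binding subunit of chondrocytes, was at 1.93 ± 0.520 and 1.24 ± 0.343 FPKM, and Itga1 at 1.52 ± 0.329 and 1.88 ± 0.289 FPKM.

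**Figure D4:**
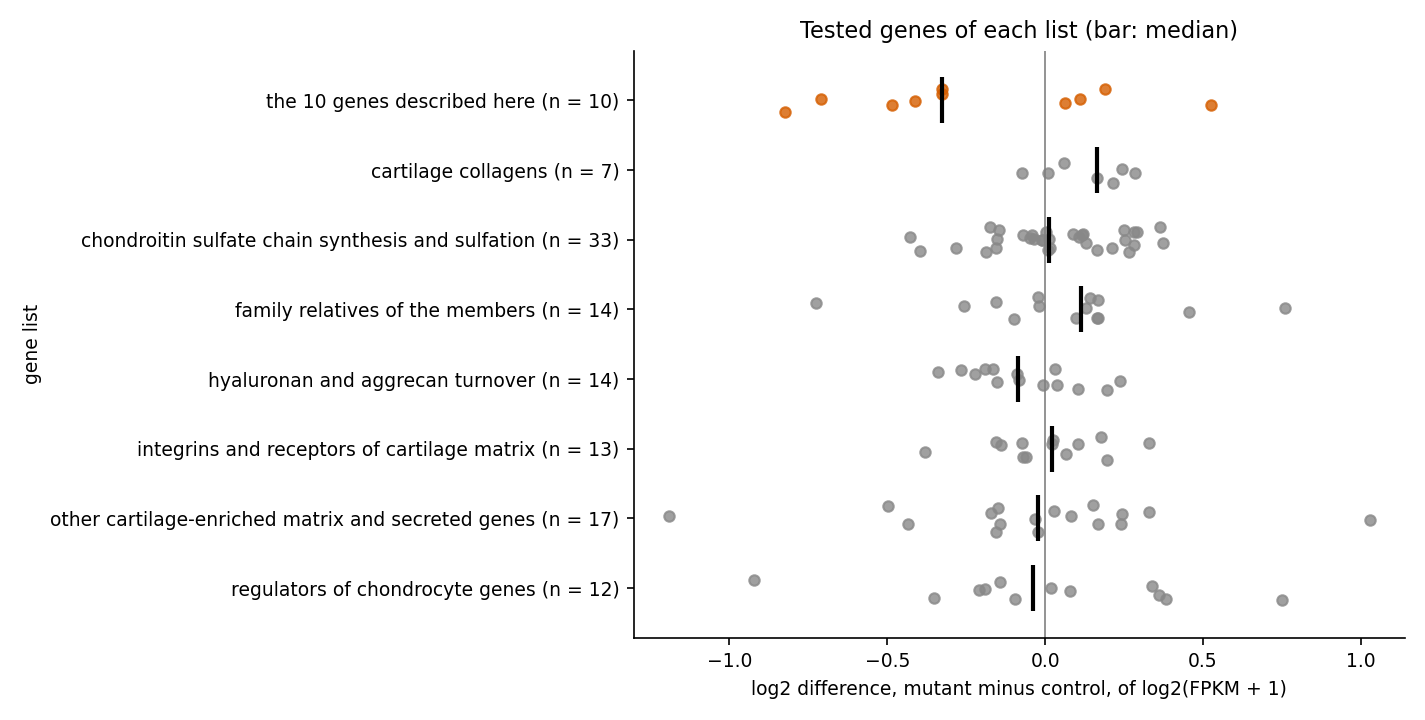
Points are tested genes of each list, placed on the horizontal axis by the log2 difference, mutant minus control, of log2(FPKM + 1), and black bars are medians. The 10 genes described here have a median of -0.33 and the cartilage collagens 0.16, while the medians of the other 6 lists lie between -0.09 and 0.11.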

How the data were processed

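Per the labels, RNA of sorted cells was sequenced in 3 control and 4 mutant samples of 3 litters. TopHat, Cuffdiff and the mm9 build are named for the reads, per the submitters' processing notes. Their versions, the annotation and any filter were not given in the sources used here. The deposited table gives 6 columns normalised by Cuffdiff's geometric method, per the file headers, stated above each litter separately. Its unit was taken as FPKM, Cuffdiff's usual output, since the deposited header does not name it. Separate scaling may bear on levels set across litters. Column sums ran from 347708 to 439109 FPKM, and depth is unknown, because low values gave no clear whole-read steps in litters 1 and 2 (8.13% and 6.12% of log2 ratios of values under 0.15 FPKM within 0.05 of -1, 0 or 1, against 44.5% in litter 3).

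Rows with 1 FPKM or more in at least 3 of 6 columns (12314 of 24102) were fitted with limma 3.58.1 in R 4.3.3. The fit was on log2(FPKM + 1), with an intensity trend, after a check of the code on simulated data. The simulated columns had no litter effect, a capped spread and larger changes than those of the 10 genes. That check therefore does not show how the fit performs on these columns. P-values were adjusted by Benjamini-Hochberg over all rows, with a threshold of 0.05. Log2 ratios to Col2a1 and Sox9 used no pseudocount. Litter numbers pair the columns per the descriptions. Deviations from group means correlated within litters 1, 2 and 3 at 0.87, 0.57 and 0.77 across rows, and between litters at 0.17 or less. P-values measure only the spread between these columns. The genes and lists were chosen with earlier results of these data known. Named genes are the 10 genes, Shox2, Sox9, Sox5, Sox6, Col2a1, up to 3 of each list with the smallest p, and 5 rows most like the mean of the 10. Prrx1, Twist1, Papss1, Thbs3, Thbs4, Mir140 and the sex-linked genes were named after values were seen.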

Additional observations from a re-analysis of the deposited data

How the results depend on the processing

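In the fit without a block limma called 0 rows (439 at an unadjusted p under 0.05). The other pseudocounts, filters and scalings and the replicate block alone also called 0. Column weights called 15 rows, and the replicate block with weights 223, 2 of them among the 10 genes. The replicate block with 1 litter pair left out called 0, 534 and 36 rows without litters 1, 2 and 3, and 0, 4 and 0 of the 10 genes. Such a fit has 1 residual degree of freedom and leans on the spread pooled over rows. Leaving out 1 column at a time called 0 to 1 rows and 0 of the 10 genes. Without the litter 2 pair, 9 genes, and 72.7% of all rows, were lower relative to Sox9 in litters 1 and 3. Directions turned for Hapln1 with column weights (-0.21), with these and the block (-0.078), and with the block without litter 2 (-0.088), and its range was -0.24 to 0.42 with 1 column left out. They turned for Acan (-0.022), Col9a1 (-0.016) and Adamts20 (-0.027) with the block without litter 2, for Adamts20 (-0.031) with block and weights, and for Sox9 with the block without litter 3 (-0.044) and with 1 column left out (-0.36 to 0.52). The cause was not tested. The other 8 of the 10 genes kept their direction in every alternative run. Depth is unknown, so counting error of low genes such as Chad and Comp could not be given.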
